A study of Bos taurus with 2 samples.

Results

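The cells described here are the milk-secreting epithelial cells of a lactating bovine mammary gland, read as single-cell RNA profiles. Barcodes were chosen by their milk transcripts: 397 barcodes of the lactating library had 300 or more detected genes, 5000 or more UMIs (unique molecular identifiers, one per captured transcript molecule), and 10% or more of those UMIs from 7 milk protein genes. These genes were CSN1S1, CSN1S2, CSN2 and CSN3, which code for the caseins, LALBA for alpha-lactalbumin, PAEP for beta-lactoglobulin and GLYCAM1 for a mucin-like protein of milk. The 397 barcodes were 2.50% (95% interval 2.26 to 2.75) of the 15897 barcodes of that library and were drawn from 29669 barcodes in both libraries of the series. The series held 1 library of the mammary gland of an adult lactating Holstein cow and 1 of a newborn Holstein gland, so stage, animal and library cannot be told apart and no comparison has a replicate check. Visible fat was removed, the tissue was digested with EDTA, hyaluronidase, collagenases and DNase, and the suspension was strained, steps in which large or fragile cells can be lost. The same rule found 0 of 13772 barcodes in the newborn gland, a count that allows at most 0.0218%. In that gland the highest milk share of any barcode was 0.143% and the 7 genes together had 22 UMIs.

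Secretory cells of the alveoli take up glucose, amino acids, fatty acids and minerals from blood and turn them into milk. Caseins and whey proteins enter the endoplasmic reticulum, are processed in the Golgi and leave by exocytosis, while lactose is made in the Golgi by a galactosyltransferase that alpha-lactalbumin redirects. Fat is made on the endoplasmic reticulum, stored as droplets and released wrapped in cell membrane as milk fat globules, with butyrophilin and xanthine oxidoreductase on the inner side of that membrane. Prolactin, acting through STAT5, and the factor ELF5 sustain this programme.

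The milk share chose the barcodes, so the values in the following sentences describe the choice and are not findings. The 7 genes held 75.0% of the UMIs of the milk-secreting barcodes, against 1.92% in the other 14510 barcodes with 300 or more genes. The lowest share among the 397 was 10.1%, the median was 76.1% and the highest was 92.6%. Few barcodes lay near the limit: of 3280 barcodes with 5000 or more UMIs, 359 had 50% or more, 38 lay between 10% and 50%, and 16 lay between 5% and 10%. The members just inside the limit had 10.1%, 12.5% and 13.4%, and the barcodes just outside it had 9.70%, 9.54% and 8.83%. The depth limit cut through a thinner population, since 598 barcodes with 10% or more milk had fewer than 5000 UMIs. Those had a median of 742.5 UMIs and 12.0% milk, and 32 of them had 50% or more. The shallowest members had 5264, 5285 and 5466 UMIs, and the deepest barcodes under the limit had 4945, 4872 and 4659.

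**Figure D1:**
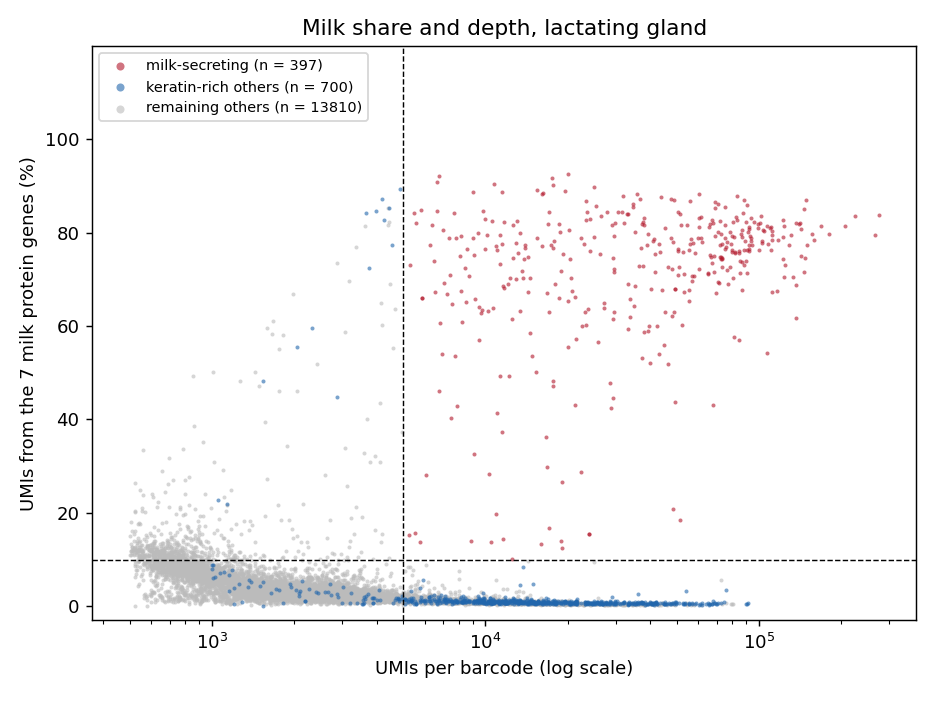
Each point is a barcode of the lactating library with 300 or more genes, placed by its UMIs (log scale) and the percent of them from the 7 milk protein genes, with dashed lines at 5000 UMIs and 10%. The milk-secreting barcodes lie mostly above 50%, and keratin-rich barcodes of similar depth lie mostly near the bottom of the plot.

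The milk-secreting barcodes were deep, with a median of 39114 UMIs (5264 to 274917) and 2584 genes. They were 2.50% of the barcodes but held 23.7% of all UMIs of the library and 91.7% of all UMIs of the 7 genes. Without these genes their median depth was 10673 UMIs, and every level below is given as CPM, counts per 1e6 UMIs other than those of the 7 milk genes. Levels were set against 700 keratin-rich other barcodes, in which KRT7, KRT8, KRT18 and KRT19 of luminal epithelium held 0.5% or more of such UMIs (median 13122 UMIs), and against 5154 other barcodes with 3 or more CD3 UMIs. The CD3-positive barcodes were chosen as T cells, which should lack milk transcripts, and serve as an approximate background level of free RNA. No doublets were removed, and some of these barcodes held markers of other cells. Their luminal marker sum had a median of 258 CPM per barcode and a highest value of 15369 CPM. Their basal marker sum had a median of 0 and a highest value of 26273 CPM. Summed levels in this group may therefore exceed free RNA. The group was also shallower, with a median of 3058.5 UMIs without milk genes. The 7 genes held 1.88% of its UMIs, against 1.10% in keratin-rich barcodes. Its levels may thus overstate free RNA in the 2 deeper groups. Of the keratin-rich barcodes, 14 had 10% or more milk and fewer than 5000 UMIs. Ratios carry exact 95% binomial intervals, shares have Clopper-Pearson intervals, and both cover counting error only.

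The name was checked against marker genes outside the rule. BTN1A1 (butyrophilin), XDH (xanthine oxidoreductase) and ELF5 summed to 5734 CPM in the milk-secreting barcodes, 784 CPM in the keratin-rich and 98.2 CPM in the CD3-positive barcodes. The 10 luminal markers were all found. Since 4 of them are the keratins that chose the keratin-rich barcodes, only the other 6 are compared, at 4699 CPM in sum in milk-secreting, 8077 CPM in keratin-rich and 266 CPM in CD3-positive barcodes. The choice by keratins may also raise these 6 in keratin-rich barcodes. Of 7 basal or myoepithelial markers, KRT14 and TP63 were at 0 UMIs and the sum was 45.7 CPM, against 990 CPM in keratin-rich barcodes. The adipocyte markers summed to 0.594 CPM with ADIPOQ at 0, although fat genes were abundant in these barcodes. T cell markers summed to 68.1 CPM, against 1522 CPM in CD3-positive barcodes. The 31 immune markers together held 0.1% or more of the UMIs without milk genes in 52 milk-secreting barcodes (13.1%), and doublets were not removed by a caller, so each gene count below was repeated without these 52. In all, 57 barcode sequences occurred in both libraries, and 1 of them was a member.

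Within the milk transcripts, CSN1S1 took 31.7% of the 7 genes' UMIs in the milk-secreting barcodes, CSN2 27.1%, PAEP 20.1%, CSN3 9.45%, GLYCAM1 6.06%, CSN1S2 4.54% and LALBA 1.04%. The CD3-positive barcodes had a similar make-up, with CSN1S1 at 30.8%, CSN2 at 25.5%, PAEP at 22.9%, CSN3 at 8.94%, GLYCAM1 at 6.24% and CSN1S2 at 4.20%. LALBA took a larger share there, at 1.49% (1.45 to 1.53), against 1.04% (1.04 to 1.05) in milk-secreting barcodes. The keratin-rich barcodes differed from both in CSN3, kappa-casein, the casein that coats the micelle surface. CSN3 took 9.45% of milk UMIs in milk-secreting barcodes (interquartile range over barcodes 8.24% to 10.5%), against 27.9% in keratin-rich barcodes (11.8% to 41.0%). Counted over all UMIs, CSN3 was 7.09% in milk-secreting, 0.307% in keratin-rich and 0.168% in CD3-positive barcodes. CSN1S1 ran the other way between the lower pair, at 23.8% in milk-secreting, 0.281% in keratin-rich and 0.579% in CD3-positive barcodes.

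**Figure D2:**
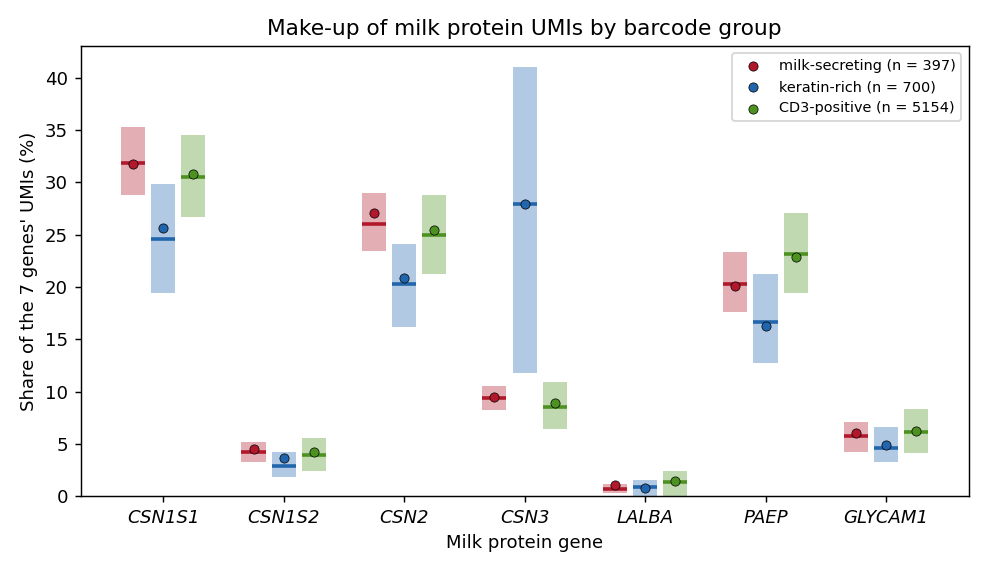
For each milk protein gene, the dot is its percent of all UMIs of the 7 genes summed over the group, the line is the median barcode and the box spans the interquartile range of barcodes. Milk-secreting and CD3-positive barcodes lie close together for most genes, and keratin-rich barcodes stand apart at CSN3 with 27.9%, against 9.45% in milk-secreting barcodes.

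The make-up varied between single milk-secreting barcodes, which is given as a description since these genes chose them. The SD between barcodes was 5.60 percentage points for CSN1S1, where counting alone gives 0.432, and 0.902 for LALBA, where counting gives 0.0942. All of the 397 had UMIs of CSN1S1, CSN1S2, CSN2, CSN3, PAEP and GLYCAM1, and 4 had none of LALBA. LALBA reached 6.43% of milk UMIs in the highest barcode, with a median of 0.671%. CSN3 took 20% or more of milk UMIs in 8 members, whose median milk share was 14.1%. Across the 397 barcodes the share of CSN2 ran against that of PAEP (Spearman rho -0.57) and the share of CSN1S1 against that of GLYCAM1 (rho -0.54), while PAEP and GLYCAM1 ran together (rho 0.47). These shares sum to 100% within a barcode, which by itself favours negative values, and the barcodes share 1 library.

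Outside the 7 milk genes, the most abundant transcripts included those of further secreted proteins. This set, the 25 genes with the most UMIs other than ribosomal and mitochondrial genes, was defined after the data had been seen. LTF, lactoferrin, an iron-binding defence protein of milk, stood at 14623 CPM in milk-secreting barcodes, 11488 CPM in keratin-rich and 236 CPM in CD3-positive barcodes. SPP1, osteopontin, a phosphoprotein of milk, stood at 12740 CPM, against 12374 CPM in keratin-rich and 385 CPM in CD3-positive barcodes. HSTN, histatherin, coded beside the caseins, was far higher in the milk-secreting barcodes, at 9749 CPM against 32.9 CPM in keratin-rich barcodes. The chemokine gene CXCL3 followed at 9234 CPM, against 5056 CPM in keratin-rich and 1715 CPM in CD3-positive barcodes. SCGB1D, a secretoglobin, had 5396 CPM against 452 CPM in keratin-rich barcodes, and FABP3, the heart-type fatty acid binding protein, had 5148 CPM against 19.4 CPM.

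These abundant genes were spread unequally between barcodes. LTF was found in 98.2% of the 397 and ranged from 0 to 110278 CPM with a median of 5477 CPM. CXCL3 was found in 88.7%, with a median of 3405 CPM and a highest value of 120559 CPM. HSTN was found in 99.0%, with a median of 8197 CPM and a highest value of 53046 CPM, against a median of 0 in keratin-rich barcodes. ELF5, a transcription factor, was itself in this set, at 2976 CPM.

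**Figure D3:**
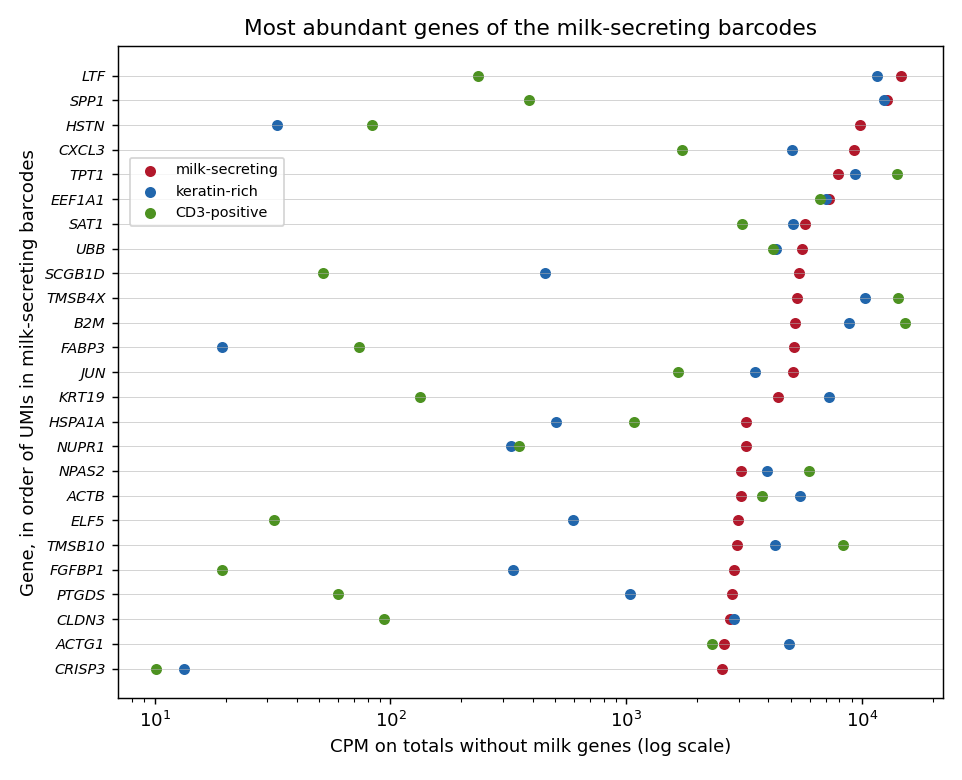
Levels of the 25 genes with the most UMIs in the milk-secreting barcodes, apart from milk protein, ribosomal and mitochondrial genes, on a log axis of CPM without milk genes, for milk-secreting, keratin-rich and CD3-positive barcodes. HSTN, FABP3 and CRISP3 show the widest gaps between milk-secreting barcodes and both other groups, while LTF and SPP1 lie close to the keratin-rich level.

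Set against the keratin-rich barcodes, 4740 genes had 20 or more UMIs in both groups together and a mean of 20 CPM, leaving out the 4 keratins. Of these, 546 (11.5%) were 2-fold or more higher in milk-secreting barcodes and 705 (14.9%) were 2-fold or more lower, with a median log2 ratio of -0.08. These shares are the background for the gene groups below. The choice of totals matters for scale: with milk UMIs counted in, every log2 ratio would drop by 1.98, so directions hold for the transcripts other than milk proteins, and ratios between 1 and about 4 would turn below 1. On such totals the median changed sign in 16 of 25 lists, and in 14 of 25 both against all other barcodes and between the milk share groups described further on.

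The 15 genes furthest above the keratin-rich level included several with known roles in milk fat and secretion. CALB1, the calcium buffer calbindin, stood at 207 CPM in milk-secreting barcodes against 0.473 CPM (437-fold, 200 to 1193). LPL, lipoprotein lipase, which frees fatty acids from blood lipoproteins, stood at 532 CPM against 1.26 CPM (422-fold, 259 to 739). BTN1A1 stood at 1288 CPM against 3.71 CPM (347-fold, 261 to 473), and was found in 95.5% of milk-secreting barcodes against 5.71% of keratin-rich ones. The others included GP2 (348-fold), HSTN (296-fold), FABP3 (265-fold), the spermadhesin gene SPADH1 (245-fold), the lactoperoxidase gene LPO (239-fold) and HHIPL2 (218-fold). The list went on with the folate receptor gene FOLR1 (195-fold), CRISP3 (190-fold), MYBPC1 (184-fold), the receptor gene ADGRF1 (143-fold), the ribonuclease gene RNASE1 (140-fold) and CIDEA (106-fold), a lipid droplet protein. Without the 14 keratin-rich barcodes above 10% milk, all 15 ratios stayed above 119 and MYBPC1 reached 322-fold. Several of the 15 lay lower in keratin-rich than in CD3-positive barcodes, so the size and order of their folds are uncertain. In CD3-positive barcodes CALB1 stood at 1.96 CPM, LPL at 5.20 CPM, BTN1A1 at 7.53 CPM, HSTN at 83.7 CPM and FABP3 at 73.4 CPM. GP2, LPO and HHIPL2 were also lower in keratin-rich barcodes, while ADGRF1, CIDEA, CRISP3 and FOLR1 were higher there.

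These genes were found in unlike shares of single barcodes. LPO was found in 91.9% of milk-secreting barcodes, with a median of 978 CPM and a highest value of 4151 CPM, and CRISP3 in 97.5%, with a median of 2123 CPM. CALB1 was found in only 42.3%, with a median of 0 and a highest value of 3405 CPM. HHIPL2 was found in 58.2% with a median of 69.1 CPM. CALB1 was thus found in part of the barcodes, LPO and CRISP3 in nearly all. LPO (1019 CPM) and CRISP3 (2537 CPM) were also more abundant in sum than CALB1 (207 CPM), which alone favours a larger share. FOLR1, at 200 CPM close to CALB1, was found in 68.5%.

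Of the 10 genes furthest below the keratin-rich level, 8 were also below their level in CD3-positive barcodes. These are the approximate background, which comes from shallower barcodes and may be too high for the milk-secreting ones. The size and order of these folds are therefore uncertain. KRT5 and WFDC2 were the exceptions. CLDN1, a claudin of tight junctions, stood at 5.74 CPM in milk-secreting barcodes, 339 CPM in keratin-rich barcodes (59.0-fold lower in milk-secreting ones) and 23.3 CPM in CD3-positive barcodes. The others were S100A14 (54.0-fold lower), ANKRD1 (40.0), the haptoglobin gene HP (38.3), the basal keratin gene KRT5 (35.0) and the calprotectin gene S100A9 (34.8). F3, tissue factor (33.8), the Wnt inhibitor gene SFRP1 (33.6), the chemokine gene CCL2 (33.1) and WFDC2, a whey acidic protein family member (32.5), were lower by similar factors. KRT5 stood at 23.6 CPM in milk-secreting, 825 CPM in keratin-rich and 16.0 CPM in CD3-positive barcodes. WFDC2 stood at 103 CPM in milk-secreting, 3364 CPM in keratin-rich and 59.7 CPM in CD3-positive barcodes. It was found in 32.0% of milk-secreting barcodes with a median of 0, and in 85.6% of keratin-rich barcodes with a median of 1595 CPM. Without the 52 immune-marked barcodes CLDN1 was 95.9-fold lower.

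Genes of the milk fat globule were the group furthest above the keratin-rich level. Of 13 compared, 11 were 2-fold or more higher and 0 were lower, with a median log2 ratio of 2.99 against -0.08 over all genes tested. MFGE8, lactadherin of the globule membrane, stood at 2000.4 CPM in milk-secreting barcodes against 38.1 CPM (52.5-fold), and MUC15 at 467 CPM against 4.65 CPM. XDH, present in many epithelia, differed less, at 1470.0 CPM against 186 CPM (7.92-fold). PLIN2, which coats cytoplasmic lipid droplets, stood at 1332 CPM against 234 CPM, and the fatty acid transporter CD36 at 658 CPM against 74.2 CPM. The fusion proteins VAMP8, at 315 CPM against 286 CPM, and SNAP23, at 25.7 CPM against 17.7 CPM, lay between the limits.

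Fatty acid synthesis was marked by FASN and SCD. FASN, fatty acid synthase, stood at 1134 CPM in milk-secreting barcodes against 142 CPM in keratin-rich barcodes (8.01-fold), and SCD, the desaturase that makes oleic acid, at 1865 CPM against 32.7 CPM (57.1-fold). FASN was found in 91.2% of milk-secreting barcodes and SCD in 95.7%. ACSS2, which activates acetate, the main carbon source of ruminant fat synthesis, stood at 75.5 CPM against 16.1 CPM, and its mitochondrial relative ACSS1 at 120 CPM against 20.1 CPM. ACLY, the citrate route to acetyl-CoA, went the other way, at 7.13 CPM against 43.1 CPM (0.166-fold). Of 6 genes compared in this list of 20, 4 were higher and 1 lower, with a median log2 ratio of 2.40, which was 0.55 when genes down to a mean of 5 CPM were counted.

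Triglyceride assembly followed, with 6 of 9 genes higher and 1 lower (median log2 ratio 1.79, or 0.82 with 20 UMIs as the only limit). The first acylation step showed GPAM at 65.4 CPM in milk-secreting barcodes against 6.94 CPM and GPAT4 at 371 CPM against 61.8 CPM. The second step differed between its enzymes, with AGPAT1 at 214 CPM against 30.3 CPM and AGPAT2 at 28.5 CPM against 144 CPM. DGAT1, the last step, stood at 29.3 CPM against 13.3 CPM. Among genes of fatty acid uptake, 4 of 10 were higher, LPL, CD36, FABP3 and SLC27A6 (531 CPM against 5.28 CPM), and 2 were lower, SLC27A1 and FABP5 (24.2 CPM against 283 CPM). The median log2 ratio of that list was 0.26.

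Sterol synthesis did not share the pattern of fat. Of 17 genes, 2 were higher and 7 lower, with a median log2 ratio of -0.59. HMGCS1 stood at 188 CPM in milk-secreting barcodes against 402 CPM, and SQLE at 61.4 CPM against 174 CPM. PMVK, at 100.01 CPM against 8.44 CPM, and HSD17B7, at 65.6 CPM against 11.4 CPM, were the 2 higher genes. Of the lipid regulators, SREBF1, which drives fatty acid genes, stood at 66.1 CPM against 20.5 CPM, and SREBF2, which drives sterol genes, at 52.7 CPM against 106 CPM.

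Genes of lactose synthesis were mixed, with 3 of 8 higher and 3 lower (median log2 ratio 0.50). B4GALT1, the galactosyltransferase of lactose synthase, stood at 775 CPM in milk-secreting barcodes against 221 CPM in keratin-rich barcodes, and UGP2, which makes UDP-glucose, at 366 CPM against 61.3 CPM. The glucose transporter genes diverged, with SLC2A8 at 45.2 CPM against 12.1 CPM and SLC2A1 at 49.3 CPM against 112 CPM. HK1, hexokinase, stood at 12.3 CPM against 53.8 CPM.

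The route of secreted proteins differed in part of its early steps. Of 21 genes of translocation into the endoplasmic reticulum, 5 were higher and 0 lower (median log2 ratio 0.61), namely SEC61A1 of the channel, SSR3, the signal peptidase genes SPCS1 and SEC11C, and TRAM1. SSR3 stood at 671 CPM in milk-secreting barcodes against 208 CPM, and SEC11C at 566 CPM against 193 CPM. SSR4, the most abundant, stood at 1944 CPM against 1044 CPM, between the limits. Of 21 genes of folding and the unfolded protein response, 4 were higher and 2 lower (median 0.31). ERP29 stood at 401 CPM against 122 CPM and P4HB at 312 CPM against 115 CPM, while the chaperone gene HSPA5, at 802 CPM against 611 CPM, and CALR, at 660 CPM against 706 CPM, lay between the limits.

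In the Golgi list 3 of 21 genes were higher and 0 lower (median 0.20). FAM20C, the kinase that phosphorylates casein, stood at 405 CPM in milk-secreting barcodes against 117 CPM, and KDELR1, a receptor that returns proteins to the endoplasmic reticulum, at 267 CPM against 132 CPM. Among translation factors 2 of 18 were higher and 0 lower (median 0.02). One of the 2 was EIF4EBP1, a repressor of cap-dependent translation, at 1902 CPM against 196 CPM (9.70-fold).

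Nutrient and ion carriers were mixed. Of 9 amino acid transporter genes, 4 were higher and 1 lower (median log2 ratio 0.96), led by SLC7A4 at 411 CPM in milk-secreting barcodes against 10.6 CPM and SLC7A8 at 170.5 CPM against 24.0 CPM. Of 14 mineral and ion transporter genes, 5 were higher and 3 lower (median 0.10). ATP2C2, a Golgi calcium pump, stood at 60.2 CPM against 1.74 CPM, the calcium channel gene ORAI1 at 146 CPM against 29.0 CPM, and SLC34A2, the phosphate carrier, at 75.8 CPM against 6.55 CPM. SLC39A8, a zinc and manganese importer, stood at 653 CPM against 91.3 CPM, and the water channel gene AQP3 at 45.2 CPM against 1.66 CPM. ATP2B1, a plasma membrane calcium pump, went the other way, at 16.4 CPM against 207 CPM.

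Of the prolactin and growth hormone pathway, ELF5 was the 1 gene of 8 that was higher, at 2976 CPM in milk-secreting barcodes against 595 CPM in keratin-rich barcodes (5.00-fold, 4.87 to 5.14). PRLR, the prolactin receptor, stood at 94.7 CPM against 164 CPM, STAT5A at 37.2 CPM against 36.4 CPM and STAT5B at 30.3 CPM against 26.3 CPM. JAK2 was the 1 lower gene, at 21.0 CPM against 57.5 CPM. With each barcode thinned to 2000 UMIs without milk genes, PRLR was found in 17.2% of 366 milk-secreting, 26.9% of 659 keratin-rich and 0.780% of 4488 CD3-positive barcodes. STAT5A was found in 7.38% (4.92 to 10.6) of milk-secreting, 7.13% of keratin-rich and 5.55% of CD3-positive barcodes, which are not told apart at this depth. Thinning left out 31 milk-secreting, 41 keratin-rich and 666 CD3-positive barcodes. Without it PRLR was found in 50.9% of milk-secreting, 72.0% of keratin-rich and 1.26% of CD3-positive barcodes, and STAT5A in 28.2%, 39.7% and 10.3% of them. For comparison, thinned BTN1A1 was found in 80.1% of milk-secreting, 0.607% of keratin-rich and 1.78% of CD3-positive barcodes, and without thinning in 95.5%, 5.71% and 2.95%.

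Epithelial identity genes showed a different balance from the keratin-rich barcodes. With the keratins left out, 1 of 11 luminal genes was higher and 5 were lower (median log2 ratio -0.95). CD24 was the higher one, at 2405 CPM in milk-secreting barcodes against 928 CPM, while EPCAM stood at 470.3 CPM against 911 CPM, E-cadherin CDH1 at 93.9 CPM against 429 CPM, and CLDN4 at 1261 CPM against 3634 CPM. CLDN3 was even, at 2756 CPM against 2866 CPM. Against all other barcodes the list, keratins included, had 7 of 14 genes higher and 2 lower (median 1.04). The keratin-rich barcodes were chosen by a keratin limit that 188 of the 397 milk-secreting barcodes (47.4%) also reached. That choice may raise other luminal genes in the keratin-rich barcodes, which was not tested. From the list named for hormone-sensing luminal cells, AREG stood at 26.3 CPM against 563 CPM, but TFF3, a trefoil peptide, stood at 1248 CPM against 88.4 CPM and AGR2, a protein disulphide isomerase, at 73.1 CPM against 3.79 CPM, both of which act in secretory cells. The 5 hormone-sensing markers summed to 157 CPM in milk-secreting barcodes against 781 CPM in keratin-rich barcodes, of which AREG gave 563 CPM. FOXA1, another of the 5, stood at 2.97 CPM against 36.1 CPM. In summed counts the steroid receptor genes went the other way, both under the mean of 20 CPM. ESR1 stood at 20.2 CPM in milk-secreting barcodes against 9.31 CPM (2.17-fold, 1.65 to 2.85) and PGR at 12.5 CPM against 8.68 CPM (1.44-fold, 1.04 to 1.98). Thinned to 2000 UMIs, ESR1 was found in 3.83% (2.11 to 6.33) of milk-secreting and 1.82% (0.944 to 3.16) of keratin-rich barcodes. PGR was found in 1.91% (0.772 to 3.90) and 1.67% (0.836 to 2.97), and neither gene is told apart at this depth. Thinned to 1000 UMIs, ESR1 was found in 11 of 392 milk-secreting (2.81%, 1.41 to 4.97) and 1 of 683 keratin-rich barcodes (0.146%, 0.00371 to 0.813). These intervals do not overlap, but the counts are small. PGR was then found in 1.02% and 1.17%.

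Of 15 genes compared in the list of other secreted milk and defence proteins, 7 were higher and 6 lower (median log2 ratio 0.35). CD14, a receptor for bacterial lipopolysaccharide, stood at 93.1 CPM in milk-secreting barcodes against 30.3 CPM. PIGR, which carries IgA into milk, stood at 1225 CPM against 105 CPM (11.6-fold), MUC1 at 350 CPM against 4.81 CPM and RNASE4 at 1248 CPM against 192 CPM. LCN2, lipocalin 2, stood at 295 CPM against 6413 CPM, SAA3, an acute phase protein, at 645 CPM against 2762 CPM, and clusterin CLU at 483 CPM against 3344 CPM. PTHLH, which mobilises calcium, stood at 96.4 CPM against 0.710 CPM (136-fold). MHC class I genes had 0 of 8 higher and 3 lower (median -0.87). The gene listed as BOLA stood at 1861 CPM against 6622 CPM, while B2M, at 5186 CPM against 8738 CPM, lay between the limits.

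Heat shock genes had 6 of 13 higher and 0 lower (median log2 ratio 0.80), among them HSPA1A at 3203 CPM in milk-secreting barcodes against 501 CPM and DNAJB1 at 1000.1 CPM against 311 CPM. Immediate early genes had 0 of 16 past either limit (median 0.17), with JUN at 5084 CPM against 3494 CPM and ATF3 at 1479.7 CPM against 1726 CPM. In CD3-positive barcodes HSPA1A stood at 1081 CPM and JUN at 1655 CPM. Dividing-cell markers summed to 11.5 CPM in milk-secreting barcodes and 9.31 CPM in keratin-rich barcodes.

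Of the remaining lists, glycolysis had 3 of 13 higher and 3 lower (median log2 ratio -0.04), nuclear genes of oxidative phosphorylation 1 of 19 higher and 0 lower (0.37), and the pentose phosphate list 1 of 6 higher and 1 lower (0.13). The single oxidative phosphorylation gene was NDUFA4, at 717 CPM in milk-secreting barcodes against 221 CPM. Interferon genes had 1 of 7 higher and 3 lower (-0.94), the higher one being ISG15 at 269 CPM against 110 CPM. ISG15 was found in 28.7% of milk-secreting barcodes with a median of 0, and 20 of them held 86.8% of its UMIs. It stood at 228 CPM in CD3-positive barcodes. Genes of involution and cell stress had 1 of 9 higher and 2 lower (0.07), with the cathepsin gene CTSB at 146 CPM against 367 CPM. Both MHC class II genes compared were lower (-2.25), as were both basal genes (-4.48). The cell division list had 1 gene compared and the circadian list 2, all between the limits, the vitamin carriers had 1 of 3 higher and 0 lower (0.17), and of the 2 genes of local feedback PTHLH was higher and TGFB2 lower.

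**Figure D4:**
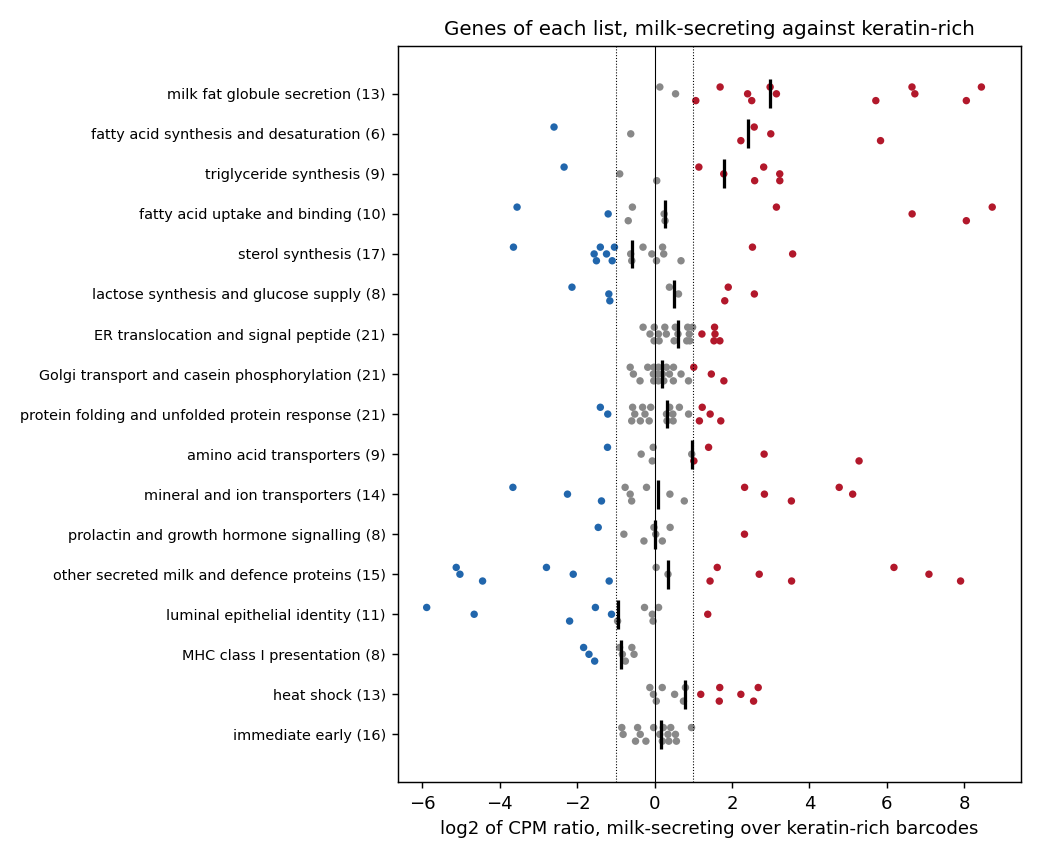
Each dot is a gene of the named list, with the number compared in brackets, placed by the log2 of its CPM in milk-secreting over keratin-rich barcodes, and the black bar is the list's median. Red dots are 2-fold or more higher, blue dots 2-fold or more lower (dotted lines). Milk fat globule genes lie to the right with a median of 2.99, while luminal identity genes (median -0.95) and MHC class I genes (median -0.87) lie to the left. The keratin-rich barcodes were chosen by their luminal keratins, which may raise other luminal genes there.

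Against all 14510 other barcodes, which include the 598 with 10% or more milk and fewer than 5000 UMIs, 4976 genes were compared. Of these, 754 (15.2%) were 2-fold or more higher in milk-secreting barcodes and 1081 (21.7%) were 2-fold or more lower, with a median log2 ratio of -0.11. The 15 largest ratios ran from 181-fold for GP2 to 108-fold for MUC1, and 11 of the 15 genes were also among the 15 furthest above the keratin-rich level. The other 4 were FOLR3, a folate receptor gene (501 CPM in milk-secreting barcodes against 3.81 CPM), SLC27A6, MUC15 and MUC1. The genes furthest below the others were the chemokine gene CCL8 (46.1-fold lower), the immunoglobulin joining chain gene JCHAIN (44.5) and LYVE1 (35.4), a marker of lymphatic endothelium. CCL8 had only 13 UMIs in milk-secreting barcodes, at 2.57 CPM against 87.3 CPM in CD3-positive barcodes. JCHAIN stood at 14.5 CPM against 617 CPM. GP2 stood at 2.12 CPM in the others and 1.57 CPM in CD3-positive barcodes. The size and order of the folds in this comparison are uncertain too.

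The milk-secreting barcodes also differed among themselves. The 132 with the highest milk share (median 82.5%) were set against the 132 with the lowest (median 61.5%), and since this split uses the milk share it describes genes that go with it. Of 4392 genes compared, 158 (3.6%) were 2-fold or more higher in the upper 132 and 333 (7.58%) were 2-fold or more lower, with a median log2 ratio of -0.01. LPL stood at 1089 CPM in the upper group against 125 CPM in the lower group (8.71-fold), and was found in 92.4% against 51.5% of barcodes. CALB1 stood at 403 CPM against 41.9 CPM, RNASE1 at 1699 CPM against 173 CPM, MFGE8 at 3274 CPM against 803 CPM and FABP3 at 8366 CPM against 2163 CPM. The largest ratio, 16.8-fold, was that of SHISAL2B, which was 9.03-fold without the 52 immune-marked barcodes.

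The 10 genes furthest below in the upper group included M-SAA3, CHI3L1, MT1A, CORO1A, MGP and CD74. M-SAA3, a mammary serum amyloid A, stood at 20.9 CPM in the upper group against 1204 CPM in the lower group, CHI3L1 at 8.36 CPM against 439 CPM, and the metallothionein gene MT1A at 53.0 CPM against 666 CPM. CORO1A, a leukocyte gene, was 13.2-fold lower, and 3.62-fold lower without the immune-marked barcodes. CD74, of MHC class II, was 9.21-fold lower, and 5.73-fold lower without them. The 3 markers shared by immune cells summed to 66.2 CPM in the upper group against 409.8 CPM in the lower group, and their part in these differences was not tested. With a milk limit of 30% in place of 10%, 6 of these 10 ratios moved by over 1.5 times. M-SAA3 was then 19.9-fold lower (57.6 under the 10% limit), CHI3L1 24.4-fold (52.5), CORO1A 4.72-fold (13.2), CD74 3.20-fold (9.21), SAA3 3.28-fold (8.50) and MGP 1.70-fold (10.0). The gene with the largest higher ratio, SHISAL2B, was 10.7-fold higher under the 30% limit.

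By group, 7 of 13 milk fat globule genes were higher in the upper group and 0 lower (median log2 ratio 1.06). The median was 0.96 without the immune-marked barcodes and 0.75 with the members split into equal upper and lower groups. Counting milk UMIs in the totals turned that median to -0.13. Interferon genes had 0 of 6 higher and 3 lower (median -1.40, or -0.51 without the immune-marked barcodes), MHC class I genes 0 of 8 higher and 4 lower (-0.98), and immediate early genes 0 of 16 higher and 3 lower (-0.64). Translocation genes had 0 of 21 past either limit (0.47). LTF was lower in sum, at 7109 CPM in the upper group against 20070 CPM in the lower group. Its medians per barcode lay closer, at 4178 CPM against 7298 CPM, and it was found in 97.7% of both groups.

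In steps of milk share, from 10 to 30%, 30 to 50%, 50 to 60%, 60 to 70%, 70 to 80% and above 80% (21, 17, 22, 63, 158 and 116 barcodes), ELF5 stood at 831, 1563, 2432, 2924, 3192 and 3536 CPM. BTN1A1 stood at 247, 601, 964, 1076, 1346 and 1789 CPM over the same steps, so both were higher at each step than at the one before. LALBA took 0.237%, 0.302%, 0.394%, 0.523%, 0.886% and 1.45% of milk UMIs, and CSN3 17.8%, 11.9%, 9.88%, 9.61%, 9.40% and 9.27%. MFGE8 was flatter at first, at 551, 616, 748, 925, 2087 and 3498 CPM. The luminal keratins differed, with KRT8 lower at each step than at the one before, at 868, 511, 412, 282, 255 and 155 CPM, and KRT19 in no such order, at 4429, 4915, 4219, 3889, 4416 and 4686 CPM. LCN2 stood at 2889 CPM in the lowest step and 117 to 230 CPM in the others, but 3 of the 21 barcodes held 91.9% of its UMIs there and the median was 1 UMI. SAA3 stood at 4663 CPM in the lowest step and 184 to 1593 CPM in the others, and 3 barcodes held 93.2% of its UMIs there.

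**Figure D5:**
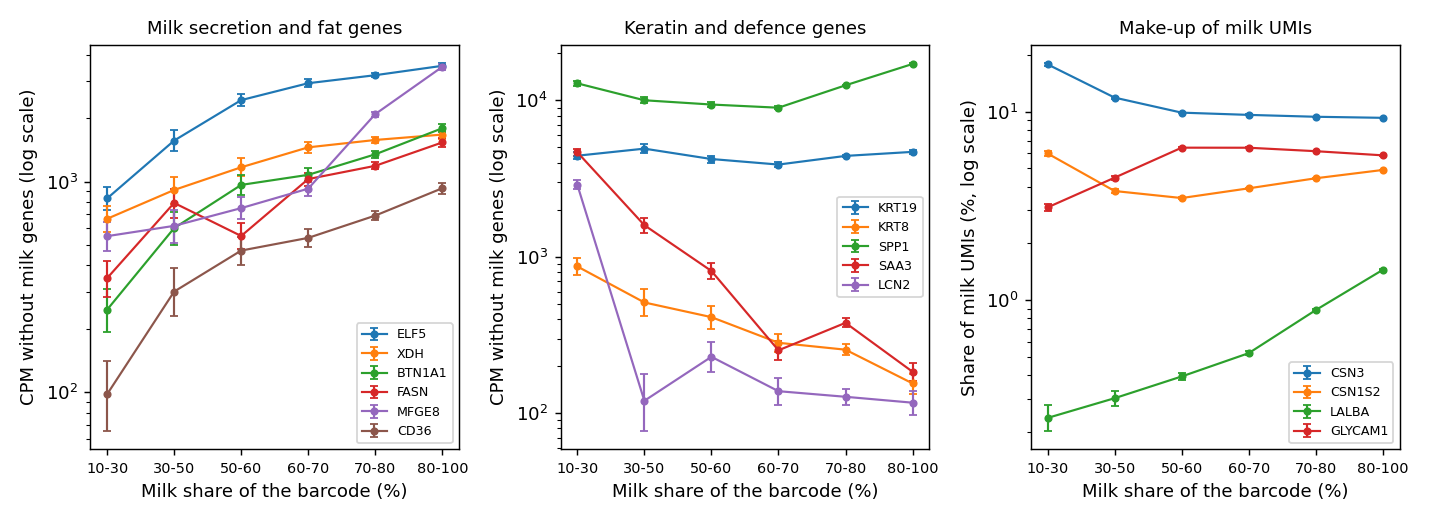
Levels of selected genes in milk-secreting barcodes grouped by milk share, low to high, with 95% counting intervals. ELF5 goes from 831 CPM at the lowest step to 3536 CPM at the highest, KRT8 goes from 868 to 155 CPM, and KRT19 stays between 3889 and 4915 CPM.

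Some genes were held by few barcodes. The 20 members with the most UMIs of M-SAA3 held 94.5% of all its UMIs, and it was found in 106 members. The same share was 91.0% for SAA3, also found in 106. MT1A was found in 66 members, ISG15, an interferon-stimulated gene, in 114 and LCN2 in 174.

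A split made after the data had been seen set apart 30 members in which mitochondrial genes held under 1% of the UMIs without milk genes. They were shallower, with a median of 2174 such UMIs against 11958 in the other 367, and their milk share was similar, at 78.6% against 75.8%. On totals without milk and mitochondrial genes, immediate early genes summed to 4735 CPM in the 30 against 20672 CPM in the others, and heat shock genes to 5894 CPM against 14896 CPM. Milk fat globule genes summed to 16738 CPM in the 30 against 15408 CPM, but without FABP3 (9448 CPM against 5599 CPM) to 7290 CPM against 9809 CPM. BTN1A1 stood at 693 CPM against 1433 CPM, MFGE8 at 1158 CPM against 2225 CPM and XDH at 874 CPM against 1635 CPM, while ELF5 stood at 4202 CPM against 3261 CPM. Neutrophil markers summed to 148 CPM in the 30, from 13 UMIs, against 12.9 CPM in the others, and 8 of the 13 were CSF3R UMIs of 1 barcode. Their part in these differences was not tested. Leaving out the 30 gave 542 genes higher and 706 lower against keratin-rich barcodes.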

How the data were processed

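Lactating and newborn bovine mammary glands were measured with 10x 3′ single-cell RNA sequencing, 1 library each. The deposited matrices hold unnormalized UMI counts, and the submitters' notes name Cell Ranger 3.1.0. No source used here names the genome build or annotation. The lactating library had 85388618 UMIs and the newborn library 65597671. Barcodes with 300 or more genes were kept, summed by group and scaled to CPM on totals without the 7 milk genes. Ratios have exact conditional binomial intervals (scipy 1.17.1) and cover genes with 20 or more UMIs and a mean of 20 CPM, called at 2-fold, with 0 UMIs set to 3. With 1 library a stage there was no test. Named genes were the 15 largest and 10 smallest ratios among genes with 100 CPM and 50 UMIs in the higher group, and members of the 31 lists, 492 of whose 506 genes were found. Members and lists were chosen with earlier results of these data known. The code was tested on simulated data. Alternatives varied limits, totals, splits and barcodes left out. No doublet caller was run.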

Additional observations from a re-analysis of the deposited data

How the results depend on the processing

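The number of milk-secreting barcodes was 463 with 2000 or more UMIs and 344 with 10000 or more. With a mean of 5 CPM, higher and lower genes numbered 1168 and 2408 against all others, 892 and 1536 against keratin-rich barcodes, and 315 and 971 between the upper and lower milk groups. With 20 UMIs as the only limit they numbered 1644 and 4612, 1221 and 2620, and 315 and 971. Splitting at the median milk share gave 58 and 170. Of list medians of 1 or more in size (log2), 5 changed sign. Counting smaller medians too, all-gene totals turned 16, 14 and 14 of 25 against keratin-rich barcodes, against all others and between the milk groups, and means over barcodes turned 5, 1 and 5. Triglyceride synthesis against all others was -0.0284 as a mean over barcodes. With milk genes in the totals, luminal identity (-1.03) and other secreted proteins (-0.14) against all others, triglyceride synthesis against keratin-rich barcodes (-1.14) and milk fat globule genes between the milk groups (-0.13) turned. On such totals each gene's log2 ratio falls by 1.97 against all others and by 1.98 against keratin-rich barcodes. Triglyceride synthesis against keratin-rich barcodes (from 1.79) and other secreted proteins against all others (from 2.16) moved further than that. The reason was not tested, nor was the cause of the change with means over barcodes. No paired analysis was possible because each stage has 1 library. Counting intervals say nothing of spread between animals.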
